A study of Drosophila melanogaster with 2 samples.

Results

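Peaks of the CG14014-eGFP fusion protein that lay inside introns, at a middle distance from a transcription start site (TSS), made up 483 of the 3216 peaks of the conservative list (15%, 95% Wilson interval 13.8 to 16.3). They were chosen by position alone: the summit had to lie in an intron of an annotated gene and in no exon, more than 500 bp and up to 2000 bp from the nearest TSS of any transcript of a protein-coding gene. Chromatin immunoprecipitation with an anti-GFP antibody, followed by sequencing, had been done on entire embryos of Drosophila melanogaster, 0 to 24 h old, from a transgenic strain that carries CG14014 joined to enhanced GFP. There were 2 biological replicates of this 1 group, chromatin was sheared by sonication, and fragments measured 200 to 800 bp per the labels. The labels do not state whether the strain also has untagged copies of the gene, and embryos of this age span hold many cell types and stages. No untagged control was used here, so no peak was set against a control in these results. Whether the authors called peaks against one is not known here. Read depth is unknown, since the deposited files hold peaks and not reads, and intervals of shares and densities cover counting error only. Peaks of 1 library are not replicates, so p-values over peaks do not measure the spread between embryos.

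Introns in Drosophila carry many of the enhancers that set where and when a gene is transcribed, and first introns, close to the promoter, hold many of them. A gene with several start sites also has introns that contain promoters of its shorter transcripts, so an intronic peak may lie downstream of 1 start site and upstream of another. Insulator proteins and the GAGA factor are general chromatin proteins known to occupy promoters and intronic sites in embryos.

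The summits of these peaks sat in stretches rich in A and T. The sequences of 6 summit windows, those of the peaks with the highest signal on arms 2L, 3L, 3R and X, show what these stretches look like; each is 101 bases on the plus strand of the release 6 reference sequence of RefSeq (dm6), with the summit in the middle. Capitals mark the 5 words that led the comparison of all words of 6 bases, each named with its values further on, and the homeodomain word TAATTA, on either strand.
CG11050, chr2L:6612668-6612768: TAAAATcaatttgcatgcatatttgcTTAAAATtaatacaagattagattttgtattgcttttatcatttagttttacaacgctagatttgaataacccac
CG32772, chrX:4910315-4910415: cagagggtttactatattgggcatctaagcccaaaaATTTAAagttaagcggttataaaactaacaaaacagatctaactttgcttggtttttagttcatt
Trl, chr3L:14759464-14759564: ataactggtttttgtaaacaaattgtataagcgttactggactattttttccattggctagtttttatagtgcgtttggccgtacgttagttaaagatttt
CG9663, chr2L:3302136-3302236: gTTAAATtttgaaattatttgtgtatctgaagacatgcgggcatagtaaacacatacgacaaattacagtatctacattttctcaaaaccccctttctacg
norpA, chrX:4324942-4325042: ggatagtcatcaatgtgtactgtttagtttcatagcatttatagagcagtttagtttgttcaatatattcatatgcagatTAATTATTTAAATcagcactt
CG3726, chrX:5918864-5918964: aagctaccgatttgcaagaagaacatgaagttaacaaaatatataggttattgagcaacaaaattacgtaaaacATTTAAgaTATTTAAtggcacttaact
For the first of them, the window centred 300 bp away, as used in the paired comparisons, is printed as well. It holds none of these words, and 61.4% of its bases are G or C, against 24.8% at the summit. This window lies outside the 140 bp intron that holds the summit. It is not a typical case, since the mean GC content of such windows was 43.3%.
CG11050, chr2L:6612968-6613068: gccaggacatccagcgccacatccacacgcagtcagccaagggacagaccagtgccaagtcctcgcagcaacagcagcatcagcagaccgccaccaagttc

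The peak at CG11050 (FBgn0031836) had the highest signal of the 483. It lay at chr2L:6612432-6612950, 1031 bp downstream of the nearest TSS, in the second intron, a coding intron of 140 bp that is shorter than the peak. Its signal, the authors' own value per peak on a scale not given in the sources used here, was 2409 in the conservative list, 1452 in replicate 1 and 936 in replicate 2. It was peak 3 of all 3216 by signal and peak 1 of the ranking of replicate 1.

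The next peak, at chr2R:21703168-21703635, lay in introns of both HmgZ (FBgn0010228) and HmgD, which encode HMG-box proteins that bend DNA. Its signal was 1596 in the conservative list, 726 in replicate 1 and 868 in replicate 2. An intron of Adf1 (FBgn0284249), which encodes a sequence-specific transcription factor, held a peak at chr2R:6662905-6663214 with a signal of 1329, of 603 in replicate 1 and of 765 in replicate 2. A peak at chr3L:14759339-14759678 in a 5′ UTR intron of Trl (FBgn0013263), the gene of the GAGA factor, had a signal of 1217, with 574 in replicate 1 and 644 in replicate 2. These 3 peaks had the higher value in replicate 2. CG32772 (FBgn0052772), with a signal of 1350, had the higher value in replicate 1, 796 against 535.

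Further down the ranking, CG9663 had a signal of 1115, norpA (phospholipase C of phototransduction) of 1019 and CG3726 of 968. A peak of 913 lay in introns of both chif, related to the Dbf4 activator of DNA replication, and Hyls1, a centriole gene, and CG9837 had a peak of 872. Kinase and phosphatase genes among the 25 peaks with the highest signal were Csk (C-terminal Src kinase, 729), MYPT-75D (a targeting subunit of myosin phosphatase, 667) and for (a cGMP-dependent protein kinase, 579). Regulators of transcription or chromatin were NFAT (817), wde (a cofactor of a histone H3K9 methyltransferase, 621) and gce (a juvenile hormone receptor, 561). The RNA-binding protein gene mub had a signal of 594, the acyltransferase gene LPCAT of 591 and the dynein heavy chain gene Dhc64C of 517. The peak of 634 nearest to the TSS of mlt lay in an intron of KCNQ, a potassium channel gene. Others of the 25 were at Reph (594), CG31635 (550), prage (548) and CG42327 (523).

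Of these 25 peaks, 22 lay in a first intron, 16 lay downstream of the nearest TSS, and 25 were in the thresholded lists of both replicates. Signal was higher in replicate 1 for 18 of the 25.

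Over all 483 peaks the signal had a median of 130 and ran from 2 to 2409. The median was 75.5 in replicate 1 (range 31.9 to 1452) and 59.6 in replicate 2 (range 24.5 to 936), each over the 479 peaks that a ranked peak of that replicate overlapped. Of 475 with a value in both, 340 (71.6%) had the higher value in replicate 1. The rankings were scored separately, and the cause of this difference was not tested. Spearman's rho between the replicate values was 0.675 across these 475 peaks, as a description of peaks that share their libraries and were kept for being reproducible.

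**Figure D1:**
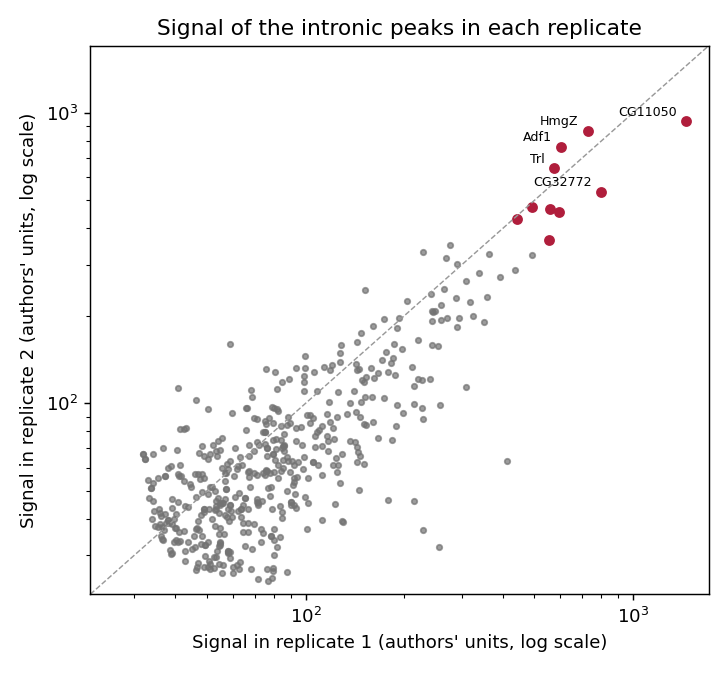
Signal of each intronic peak 500 to 2000 bp from a TSS in replicate 1 (x axis) and replicate 2 (y axis), in the authors' units on log scales, for the 475 peaks with a value in both. Red points are the 10 peaks with the highest signal in the conservative list, the first 5 of them named, and the dashed line marks equal values; 340 points lie on the replicate 1 side, while HmgZ, Adf1 and Trl lie on the other.

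Signal in the conservative list is not the sum of the replicate values for every peak. It was lower than both replicate values at 17 of the 483 peaks, such as the lowest of all, at Best1, with 2 in the conservative list but 57 in replicate 1 and 50.7 in replicate 2. Neighbouring summits can share a ranked peak of a replicate, as did at most 38 peaks in replicate 1 and at most 34 in replicate 2. Both counts include the peaks that no ranked peak of that replicate overlapped.

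Thresholded lists of the single replicates, of 4617 peaks in replicate 1 and 2721 in replicate 2, covered most of these peaks. The conservative list was itself kept for being reproducible, and the share covered over all 3216 peaks was not computed. Replicate 1 had 419 of them (86.7%) and replicate 2 had 357 (73.9%). Both lists held 326 (67.5%), replicate 1 alone 93, replicate 2 alone 31 and neither 33. Among the 677 intronic peaks farther than 2000 bp from a TSS, called deeper intronic peaks from here on, the share was 86.1% in replicate 1 (Fisher exact test, odds ratio 1.06, adjusted p = 0.795). In replicate 2 it was 66.6%, which is lower (Fisher exact test, odds ratio 1.42, adjusted p = 0.0136). Here and below, adjusted p-values are Benjamini-Hochberg values over the 12 tests of this kind. In alternatives that left some of the 12 out, they are over those that remained. By the same Fisher exact test, the difference in replicate 2 no longer passed with an inner bound of 1000 bp (adjusted p = 0.055) or where at least 50% of the peak had to be covered (adjusted p = 0.0737), nor among peaks with a global irreproducible discovery rate (IDR) of 0.001 or less (odds ratio 2.27, adjusted p = 0.0921).

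Signal was above the median of all 3216 peaks at 248 of the 483 (51.3%), against 291 of 677 deeper intronic peaks (43%; Fisher exact test, odds ratio 1.4, adjusted p = 0.0101). By the same Fisher exact test this call was lost in the list of replicate 2 alone (odds ratio 1.22, adjusted p = 0.166), in that of replicate 1 alone (1.17, adjusted p = 0.205), in the optimal list (1.17, adjusted p = 0.131) and with a global IDR of 0.001 or less (1.33, adjusted p = 0.132). Against promoter peaks, whose summits lie within 500 bp of a TSS, the difference did not pass (54.7% of 1569, Fisher exact test, odds ratio 0.875, adjusted p = 0.252), but it did in the list of replicate 2 alone (0.749, adjusted p = 0.0169). The median signals were 130 for the 483 peaks, 115 for the deeper ones and 137 for promoters. At the top of the list, 46 of the 300 peaks with the highest signal were among the 483 (9.52% of them), 30 were deeper (4.43% of 677) and 192 were at promoters (12.2% of 1569). Of all 3216 peaks the 483 are 15%, close to their part of the top 300. These counts were not tested.

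Peaks were denser here than deeper in introns. The intronic sequence that meets the rule spans 10.3 Mb and held 46.9 peaks per Mb, against 15.4 per Mb in the 43.9 Mb of deeper introns, a ratio of 3.05 (95% interval 2.7 to 3.43; exact binomial test, adjusted p = 2.35e-69). Within the zone, the part from 500 to 1000 bp held 239 peaks at 60.6 per Mb and the part from 1000 to 2000 bp held 244 at 38.4 per Mb, a ratio of 1.58 (1.31 to 1.89; exact binomial test, adjusted p = 1.55e-06). The ratios stayed between 2.49 and 3.74 and between 1.4 and 1.57 in the alternatives run, and passed in each.

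By steps of 250 bp the density was 71.5 per Mb at 500 to 750 bp from the TSS and 49 at 750 to 1000 bp. It was 39.7, 39 and 41.2 per Mb in the next 3 steps, whose 95% intervals overlap, and 33.1 at 1750 to 2000 bp. Beyond the zone it was 25 per Mb from 2000 to 3000 bp and 8.59 per Mb beyond 10000 bp. Spearman's rho between signal and distance was -0.0184 across the 483 peaks, and the median signal of the 6 steps ran from 115 to 139.

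Most of the peaks lay in first introns. An intron counts as first if it is the first of any annotated transcript of a protein-coding gene, and such introns held 413 of the 483 peaks (85.5%) but 65.7% of the sequence of the zone. That is 61 peaks per Mb in first introns and 19.8 per Mb in others, a ratio of 3.08 (95% interval 2.38 to 4.02; exact binomial test, adjusted p = 4.30e-22). The ratio ran from 2.75 to 3.74 over its alternatives and passed in each. First introns had the higher density in each of the 6 distance steps, from 84.2 against 37.8 per Mb at 500 to 750 bp to 41.7 against 20.7 per Mb at 1750 to 2000 bp.

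**Figure D2:**
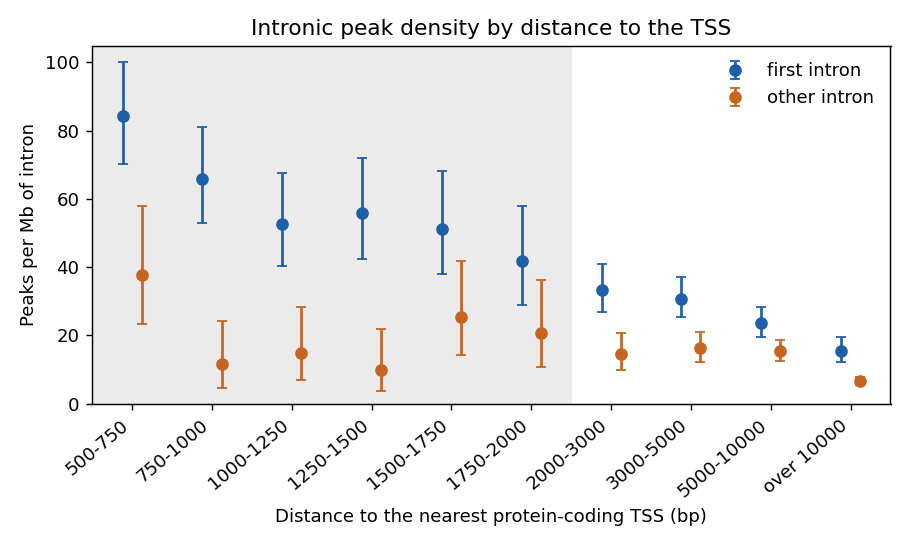
Peaks per Mb of intron (y axis) by distance of the summit from the nearest protein-coding TSS in bp (x axis, unequal steps), for first and other introns, with exact 95% Poisson intervals. The grey area is the zone from 500 to 2000 bp; first introns fall from 84.2 per Mb at 500 to 750 bp to 15.5 per Mb beyond 10000 bp, and other introns lie lower in each step.

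With first and other introns pooled, the side of the TSS gave no difference that passed. Downstream of the nearest TSS lay 311 peaks (64.4%), at 45.3 per Mb, and upstream 172, at 50.2 per Mb, a ratio of 0.903 (95% interval 0.747 to 1.09; exact binomial test, adjusted p = 0.315). Of the 172 upstream peaks, 139 had a nearest TSS that belongs to a gene with the summit in its own intron, which is to say an internal start site. In first introns the density was 57.6 per Mb downstream (292 peaks) and 71.4 per Mb upstream (121 peaks). In other introns it was 10.6 per Mb downstream (19 peaks) and 29.4 per Mb upstream (51 peaks). First introns made up 5.07 of the 6.87 Mb downstream and 1.7 of the 3.43 Mb upstream, so the pooled ratio mixes intron classes of unlike density. The contrast within each class, and the difference between these 2 contrasts, were not tested.

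By the part of the transcript that the intron interrupts, 229 peaks (47.4%) lay in introns of the 5′ UTR, 177 (36.6%) in introns between coding exons, and 76 (15.7%) in introns that are one or the other by transcript. One further peak lay in an intron of a noncoding transcript. Of the deeper intronic peaks 27.8% lay in 5′ UTR introns and 55.2% in coding introns. This was not tested. The share of the sequence that each intron type takes up, in the zone or deeper, was not computed, so these shares show no preference of the peaks. Where transcripts differ, the length of the intron is that of the shortest one annotated over the summit. Its median was 4483 bp, and it was below 1000 bp at 49 of the 483 peaks.

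Peaks of the zone occurred on the 5 large arms: 78 on 2L, 84 on 2R, 89 on 3L, 121 on 3R and 111 on X. Densities per Mb of the zone were 42.8, 42.8, 44.1, 52.4 and 54 in that order. The ratio of X to the autosomes was 1.18 (95% interval 0.943 to 1.46; exact binomial test, adjusted p = 0.187). It passed in the list of replicate 2 alone (1.29, exact binomial test, adjusted p = 0.0413) and with a global IDR of 0.001 or less (1.59, adjusted p = 0.00161), and was 0.946 in the list of replicate 1 alone. Chromosome 4 and Y held 0 peaks in 0.118 Mb and 0.0094 Mb of such sequence.

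The gene of the nearest TSS more often had a promoter peak, at that TSS or at any other of its own. It did for 183 (37.9%, 95% Wilson interval 33.7 to 42.3), against 155 of 677 deeper intronic peaks (22.9%, 19.9 to 26.2; Fisher exact test, odds ratio 2.05, adjusted p = 1.41e-07). In the list of replicate 1 alone the odds ratio was 1.22 and did not pass (Fisher exact test, adjusted p = 0.0925). Among the 25 peaks with the highest signal, 16 had such a gene, CG11050, HmgZ and Trl among them, and CG32772, Adf1 and norpA did not. Signal was above the median of all peaks at 97 of the 183 (53%) and at 151 of the other 300 (50.3%). Another summit lay within 1000 bp of 123 peaks (25.5%), against 17.3% of deeper intronic and 17.7% of promoter peaks.

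The peaks were spread over many genes. Their nearest TSSs belonged to 403 genes, and 424 protein-coding genes held them in introns, which is 5.88% of the 7213 genes with at least 100 bp of such intronic sequence. Among the 424, 349 held 1 peak, 61 held 2, 7 held 3, 6 held 4 and 1 held 5. The genes with a peak had a median of 3028 bp of eligible intron and those without a peak 591 bp. For 39 peaks (8.07%) the nearest TSS belonged to a gene other than the host, and 46 lay in introns of more than 1 gene.

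CHES-1-like (FBgn0029504), which encodes a forkhead transcription factor, held 5 peaks, with signals of 452, 206, 156, 138 and 97.6. In replicate 1 their values were 243, 80.7, 109, 69.5 and 60.3, and in replicate 2 they were 208, 128, 61.2, 68.6 and 56.2, so only the second was higher in replicate 2. Tlk, the tousled-like kinase gene, held 4, with signals of 306, 164, 162 and 106. CG42258 held 4, the highest with 468, and 2 of its summits shared 1 ranked peak in each replicate. CG1677 held 4, all nearest to the TSS of another gene, Dok, CBP, CG42780 or unc-119, with signals from 99.5 to 286. The 4 peaks of shn, a zinc finger gene of Dpp signalling, had signals of 343, 132, 122 and 25.4. Those of 132 and 25.4 are adjacent and have the same value in replicate 1, 130, and the former has no value in replicate 2. CG32264 held 4 peaks, from 92.1 to 233.

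Trl held 3 peaks, of 1217, 131 and 98.2, and HmgZ 3, of 1596, 151 and 120, so in both genes 1 peak stood far above the others. The 3 peaks of NFAT had signals of 817, 378 and 187. Diap1, an inhibitor of apoptosis, held peaks of 354, 130 and 113.

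Lists of genes by pathway or complex were read against the 5.88% of all eligible genes that held a peak, and no test of a list was made. The lists do not hold every gene of a pathway or complex, so each count covers the listed genes only. A gene counts if the summit lies in its intron, and the nearest TSS can belong to another gene. Such peaks include those of sbb (nearest to CG14505), Egfr (CG30286), insc (sktl), NetB (hog), kirre (CG32795) and Nmdar1 (Itpr). Density per Mb of eligible intron is given with each count above 0 because the lists differ in intron length; the value for all introns of the zone was 46.9.

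In receptor tyrosine kinase signalling (EGFR, FGF, Ras and MAPK), 7 of 21 eligible genes held a peak (122 per Mb). The ligand-side members were ths, an FGF (signal 322; 182 in replicate 1 and 138 in replicate 2), and S, the Star protein that carries EGFR ligands through the secretory path (276; 189 and 83.7). Inside the cell the list had drk, the Grb2 adaptor (311; 188 and 125), with its peak nearest to the TSS of mars, and sty, the feedback inhibitor sprouty (253). The remaining 3 genes, pnt, Egfr and aop, had signals between 80.1 and 83.9.

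Of the Dpp and TGF-beta pathway 4 of 15 genes held a peak (143 per Mb, from 8 peaks, of which shn held 4, its adjacent pair counted separately). The receptor gene wit, of the type II class, had a signal of 383, with 220 in replicate 1 and 165 in replicate 2. Besides shn, the list had the signal transducer Mad (169; 127 and 53.3) and the co-regulator sbb (144). In the list of JAK/STAT, Toll and immune signalling, 3 of 16 did (169 per Mb): Dif, an NF-kappa-B factor (339), Stat92E, the STAT factor itself (199), and its inhibitor Socs36E (145 for the higher of its peaks).

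Other signalling lists had shares of genes between 5.88% and 8.33%, and densities below the 46.9 per Mb of the zone, each from 1 peak. In the Notch pathway 1 of 17 held a peak (28.2 per Mb), neur, a ubiquitin ligase for Notch ligands (269), and in the Wingless and Hedgehog list 1 of 17 (23.2 per Mb), sgg, the GSK3 kinase (88.6), which was also the 1 of 12 in the circadian list (27.6 per Mb). Insulin, TOR and Hippo had 1 of 16 (37.5 per Mb), the receptor gene InR (297). Off this list, mats (184), ImpL2 (363), PRAS40 (215) and Sesn (222) held peaks, as did Wnt4 (97.8) and boi (99.3) off the Wingless and Hedgehog list. Ecdysone and nuclear receptors had 1 of 16 (13 per Mb), br, whose peak of 179 was nearest to Mur2B.

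Among chromatin and promoter factors, 4 of 18 zinc finger and promoter factor genes held a peak (96.9 per Mb): Adf1, Trl, br and CtBP (78.1). Trl, with its 3 peaks, was also the 1 of 10 in the insulator list (358 per Mb of only 8.37 kb). HMG-box genes had 2 of 12 (111 per Mb), HmgD and HmgZ, which overlap and share 2 of their peaks. The Polycomb group had 1 of 12 (102 per Mb, from 1 peak), ph-p (194; 103 in replicate 1 and 85.5 in replicate 2), at 1269 bp from the TSS. In the trithorax and remodeller list 0 of 24 held a peak (Wilson upper limit 13.8%). That list leaves out Trl, counted above, and tna (179) and tou (summed signal 279 over 2 peaks), which also held peaks. Kinases of chromatin and the cell cycle had 3 of 23 (135 per Mb): Tlk, the LAMMER kinase Doa (171) and CycE, a cyclin (107).

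For developmental regulators the counts were 1 of 12 Hox and homeotic genes (67.1 per Mb), Abd-B (125 and 78.6), and 0 of 13 segmentation genes (Wilson upper limit 22.8%). Neural and RNA-binding genes had 4 of 19 (56 per Mb): brat, a translational repressor (469), elav, a neuronal RNA-binding protein (274), pum, which acts with brat in repression (139), and insc (104). Muscle and mesoderm had 3 of 22 (32.3 per Mb): Msp300, a nesprin (442), kirre, a receptor of myoblast fusion (201), and the factor zfh1 (167). The tracheal list had 1 of 10 (43.4 per Mb), sty again.

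In the splicing list 5 of 20 genes held a peak (93.3 per Mb), with mub, ps, a Nova-like splicing factor (274), and Sxl, the master switch of sex determination (173), the highest. Sxl and fru (133) were the 2 of 6 in the list of dosage compensation and sex determination (80.5 per Mb). Axon guidance and adhesion had 4 of 34, led by NetB, a netrin (225), Ptp10D, a receptor phosphatase (223), and kirre. Ion channels and synapse had 3 of 32, KCNQ, dlg1, a synaptic scaffold (259), and Nmdar1 (74.4). Both were below the density of all introns of the zone, at 24.7 and 34.4 per Mb. Ribosomal protein genes had 0 of 38 (cytoplasmic, Wilson upper limit 9.18%) and 0 of 13 (mitochondrial), with only 12.5 kb and 8.32 kb of eligible intron.

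**Figure D3:**
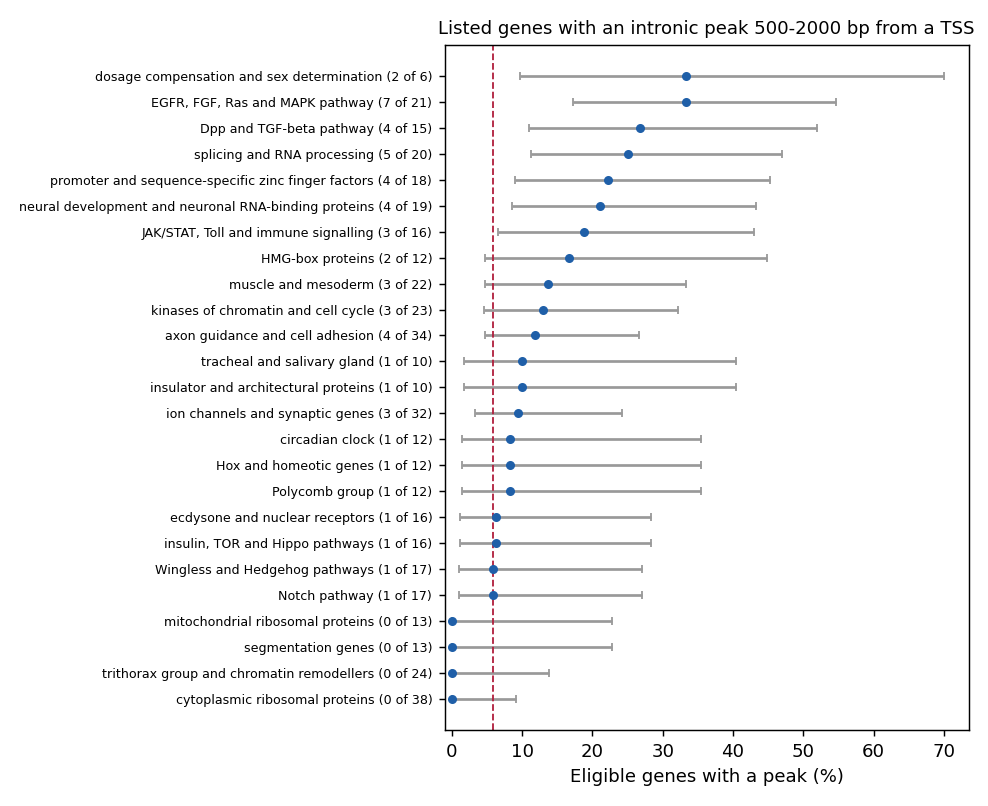
Percent of the eligible genes of each list with an intronic peak 500 to 2000 bp from a TSS (x axis), with 95% Wilson intervals and the counts in the labels; the dashed line is the 5.88% of all eligible genes. The highest shares are 33.3% (2 of 6 and 7 of 21), and 4 lists stand at 0. Lists overlap, differ in intron length and do not hold every gene of a group.

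GC content was lower at the summit than 300 bp away at 382 of the 470 peaks where the windows differed (81.3%, 95% Wilson interval 77.5 to 84.5; exact binomial test, adjusted p = 6.38e-44). The means were 32.8% ± 8.43 (SD, n = 483 peaks) at the summit and 43.3% ± 9.27 in the other window. That other window held exon bases at 84 of the 483 peaks (17.4%), and among the 396 peaks with both windows free of exon bases the share was 80.5% (exact binomial test, adjusted p = 2.90e-34). It was 69.4% in the list of replicate 1 alone. Among the 121 peaks with the highest signal the mean at the summit was 30.4%, and in the next groups of 120, 121 and 121 peaks it was 31.4%, 33.5% and 35.9%, while the other window stayed between 42.5% and 43.8%. Spearman's rho between signal and summit GC was -0.257 across the 483 peaks. The share of summits with a GC content below the median did not pass against deeper intronic peaks (47.8% against 52.6%, Fisher exact test, odds ratio 0.827, adjusted p = 0.182).

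**Figure D4:**
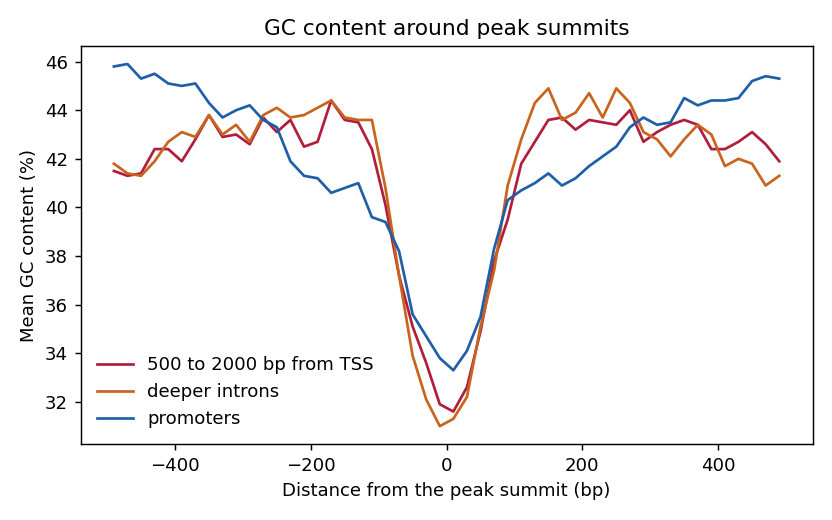
Mean GC content in percent (y axis) by distance from the summit in bp (x axis) for the intronic peaks 500 to 2000 bp from a TSS, the deeper intronic peaks and the promoter peaks. The lines dip at the summit, to 31.6% in the first class, and that class lies above 41% at both ends of the plot.

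Most words of 6 bases made only of A and T were in more windows at the summits. Of the 2080 words of 6 bases, each counted with its reverse complement, 146 (7.02%) were in more summit windows than windows 300 bp away and 178 (8.56%) in fewer, by exact McNemar tests with adjusted p below 0.05. Of the 36 words made only of A and T, 35 were among the more frequent. The leading word was ATTTTA, in 30.8% of windows at the summit and 10.6% of those away from it (McNemar exact test, odds ratio 4.02, adjusted p = 6.78e-12). It was followed by ATTTAA (30% and 10.8%), TTAAAA (34.4% and 13.3%), AATATT (20.9% and 6.21%) and TAAATA (31.3% and 13.5%). In the 6 windows printed first, Trl has none of the marked words, although its GC content was 31.7%.

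Of 32 words of known factors, searched on both strands, 2 (6.25%) were more frequent at the summit and 2 (6.25%) less frequent. The TATA word, TATAAAA or TATATAA, was in 74 windows at the summit (15.3%) and 24 away from it (4.97%; McNemar exact test, odds ratio 3.44, adjusted p = 1.56e-06). It was in 14.9% of the summit windows of all 3216 peaks. The homeodomain word TAATTA was in 11.8% against 4.76% (McNemar exact test, odds ratio 2.84, adjusted p = 0.000468), and in 10.2% of all peaks. Other words of A and T in the list did not pass: AAAAAAAA was in 7.87% against 8.28% (McNemar exact test, odds ratio 0.944, adjusted p = 1) and AATAAAA in 11.2% against 9.32% (odds ratio 1.25, McNemar exact test, adjusted p = 0.606). TATA and TAATTA consist of A and T only, and GC content moved with them as given above; its part in them was not tested. TAATTA did not pass in the list of either replicate alone (McNemar exact test, adjusted p = 0.0654 and 0.346).

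The less frequent words were CACACACA, in 1.04% of windows at the summit, against 5.8% of those 300 bp away (McNemar exact test, odds ratio 0.193, adjusted p = 0.000489; all peaks 0.995%), and the GAGA word GAGAG, in 8.07% against 16.1% (McNemar exact test, odds ratio 0.469, adjusted p = 0.00132; all peaks 8.3%). Neither passed in the list of replicate 1 alone (McNemar exact test, adjusted p = 0.0868 and 0.185), nor did GAGAG with an inner bound of 1000 bp (0.559, adjusted p = 0.232). A word found or missing in a window says nothing on whether its factor binds.

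Against promoter peaks, 4 of 32 words (12.5%) differed, each rarer at the 483 summits. The Ohler7 core promoter word was in 2.9% against 8.86% (Fisher exact test, odds ratio 0.307, adjusted p = 0.000243; all peaks 5.66%). TATCGATA, the DRE word of the factor Dref, was in 1 of the 483 (0.207%) against 3.25% (odds ratio 0.0618, Fisher exact test, adjusted p = 0.000605; all peaks 1.65%). CGATA, the core word of the insulator protein BEAF-32, which the DRE word contains, was in 11.4% against 19% (odds ratio 0.548, Fisher exact test, adjusted p = 0.00171; all peaks 14.7%). AATAAAA was in 11.2% against 16.7% (odds ratio 0.628, Fisher exact test, adjusted p = 0.0393; all peaks 14.4%) and passed in 1 of its 9 alternatives. The first 3 are words known from promoters, and the promoter windows were not matched in position or composition. With only peaks whose windows were free of exon bases, which leaves 369 promoter peaks, none of the 4 passed.

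Against deeper intronic peaks, 1 of 32 words (3.12%) differed. The Runt word, AACCACA or AACCGCA, was in 14 of the 483 summit windows (2.9%) and 3 of 677 (0.443%; Fisher exact test, odds ratio 6.71, adjusted p = 0.0124), and in 1.62% of all peaks. Within the 483 the summit did not pass against the window 300 bp away (2.9% and 1.45%, McNemar exact test, adjusted p = 0.454), while among deeper peaks the summit had fewer (0.443% and 2.51%). The call passed in 4 of the 8 alternatives that gave a finite ratio and in the list of neither replicate alone. Of the 14 peaks the one with the highest signal was at Tpr2 (306), and the others included sba (160), CHES-1-like (156), the transcription factor gene aop (80.1) and stv (68.3). Windows of 3 of these peaks follow, with the Runt word in capitals on either strand.
Tpr2, chr2L:16500553-16500653: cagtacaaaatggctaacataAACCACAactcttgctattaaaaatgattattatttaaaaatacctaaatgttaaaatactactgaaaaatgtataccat
sba, chr3R:23921309-23921409: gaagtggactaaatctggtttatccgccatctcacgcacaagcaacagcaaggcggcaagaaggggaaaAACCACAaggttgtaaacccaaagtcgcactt
CHES-1-like, chrX:7703761-7703861: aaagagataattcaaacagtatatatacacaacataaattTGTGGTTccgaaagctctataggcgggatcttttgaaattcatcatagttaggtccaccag

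**Figure D5:**
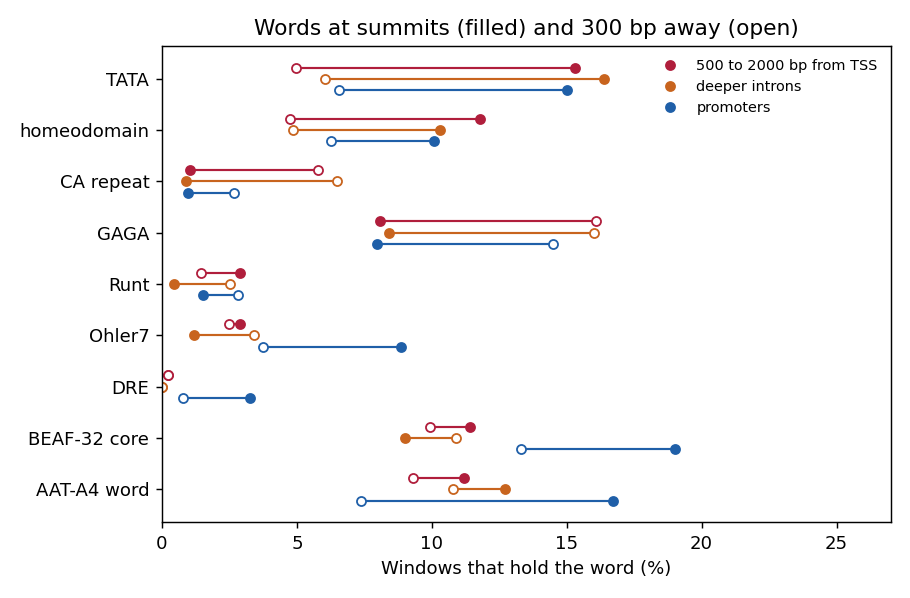
Percent of windows that hold each word (x axis) at the summit (filled) and 300 bp away (open), for intronic peaks 500 to 2000 bp from a TSS, deeper intronic peaks and promoter peaks. TATA stands at 15.3%, 16.4% and 15% at the summits of the 3 classes, while DRE stands at 0.207%, 0% and 3.25%; AAT-A4 word is AATAAAA.

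The bounds of the zone cut through a continuous range of distances. Just inside the 500 bp bound were peaks at CG4615 (507 bp, signal 141) and Ogdh (510 bp, 145), and just outside were intronic summits at ph-p (499 bp, 1635) and CG31612 (496 bp, 555). Just inside the 2000 bp bound were peaks at CHES-1-like (2000 bp, 138) and Reck (1996 bp, 15.9), and just outside were CG42709 (2008 bp, 85.2) and CG43658 (2013 bp, 84.7).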

How the data were processed

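The authors deposited peak lists, on dm6 per the notes that came with the samples. The sources used here do not give the aligner or the caller. A peak carries a signal value set by the authors, of unstated scale, used only to describe and rank peaks, and a summit offset in bp from the peak start, another value the authors deposited. The ranked list also carries the −log10 of the global IDR as the authors deposited it. In the conservative list that rate was at most 0.01. No file gives reads, so depth and its precision are unknown.

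Peaks on the 7 chromosome arms were classed by summit against Ensembl release 115, transposable elements left out. Replicate values are from the ranked list of each replicate, at the overlapping peak with the nearest summit. Sequence came from the RefSeq release 6 reference. Windows reached 50 bp to each side of the summit, and the paired window was centred 300 bp toward higher coordinates. Densities were compared by exact binomial tests on eligible non-exonic bases, shares by two-sided Fisher exact tests and paired windows by exact McNemar tests, with 0.5 added to discordant counts for odds ratios. Benjamini-Hochberg adjustment ran over 12 tests (fewer in the lists of single replicates and with an inner bound of 1000 bp), over all words and classes, or over 2080 6-mers. A promoter peak is a summit within 500 bp of a protein-coding TSS. The functions were tested on simulated data.

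The 483 peaks, the 26 gene lists, the 32 words and the tests were chosen with earlier results of these data known. Items named are the 25 peaks with the highest signal, up to 3 peaks per gene list by signal, the 10 genes with the highest summed signal among those with 3 or more peaks, the peaks nearest the bounds, the words past an adjusted p of 0.05 and the 5 leading 6-mers; pnt, Egfr, aop and other genes or peaks beyond these were named after their values were seen. Alternatives changed 1 choice at a time: the global IDR, the list, the merging of overlaps, the inner bound, the TSS set, the windows and the overlap. Of the 25 peaks 1 and of the gene lists 1 are not reported here. The tools were matplotlib 3.10.9, scipy 1.17.1, pandas 2.3.3 and numpy 2.4.6 under Python 3.11.15. A control experiment named in the labels was not used.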

Additional observations from a re-analysis of the deposited data

How the results depend on the processing

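Density against deeper introns, density near against far, first introns, the side of the TSS and the lower GC content at the summit kept their direction and their side of the threshold in the alternatives run. Other results moved. With a global IDR of 0.001 or less, the X ratio was 1.59 and passed, signal against deeper introns gave 1.33, summit GC against deeper introns turned to 1.09, the replicate 1 list turned to 0.582, the replicate 2 list gave 2.27, words against other classes fell from 5 to 0 and more frequent 6-mers from 146 to 88. In the optimal list signal against deeper introns gave 1.17 and words against other classes 3. An inner bound of 1000 bp gave 0.963 for the replicate 1 list, 1.44 for the replicate 2 list, 3 words against other classes and 53 6-mers. Windows of 100 bp gave 222 6-mers, and a cover of at least 50% gave 1.3 for the replicate 2 list. With windows free of exon bases, chosen after seeing the data, 0 words differed between classes. The lists of single replicates gave an X ratio of 0.946 to 1.29 and signal against promoters of 0.749 to 1.09, each past the threshold in the list of replicate 2 alone, signal against deeper introns of 1.17 to 1.22, a promoter peak at the nearest gene of 1.22 to 2.18, 1 to 4 words at summits and 78 to 123 6-mers. Fewer peaks of the zone enter the stricter list (286) and the narrower zone (244), and more enter the optimal list (852) and that of replicate 1 alone (679). Why results moved was not tested. Leaving out transposable element insertions, also chosen after seeing the data, gave ratios of 2.87, 1.55 and 3.11 for the first 3 results. The Runt word against deeper introns had no finite ratio with the stricter IDR, since 0 deeper peaks held it, and did not pass there. No paired analysis was possible because the replicates form 1 group. Depth is unknown, and 2 replicates limit what the lists can show.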
